A study of Mus musculus with 75 samples.

Results

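Livers of vehicle-treated male C57Bl/6 mice were compared between 10 and 5 months of age, the control side of a study of maternal exposure to tributyltin (TBT), an organotin compound. The comparison holds 13 of the 75 libraries of the series, all of sequencing batch 1: 6 vehicle libraries of 10 months (numbers 1, 2 and 4 to 7) and 7 of 5 months (numbers 1 to 6 and 9). The labels give the exposure of both groups as vehicle and do not say what the vehicle was or whether a number marks a litter. A further 10-month vehicle library, number 3, is labelled as a tumor and entered no comparison. For reference, low-risk TBT livers of the same batch, 5 of 10 months and 6 of 5 months, came from mice whose dams had TBT in their drinking water up to weaning, at a daily 0.5 mg per kg (3.07 µM). How the risk label was assigned is not given in the sources used here. Each library is bulk RNA of a whole tissue, so a lower level of a cell-type gene can stand for fewer such cells or for less RNA per cell, and these cannot be told apart. Age and the day of sampling or library preparation cannot be told apart either, and the p-values below measure only the spread between these samples.

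The hepatocyte, the main cell of the liver, makes most plasma proteins and bile acids. When interleukin-6 and interleukin-1 reach it, it raises its acute phase proteins (serum amyloids, fibrinogen, haptoglobin) within hours. Type I interferons act through transcription factors such as IRF9 on interferon-stimulated response elements in the promoters of antiviral genes. Metallothioneins are small proteins that bind zinc and copper, and they are switched on by metal through MTF1 at metal response elements, and also by glucocorticoids and inflammatory signals.

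Levels are given in CPM, counts scaled to 1000000 per library. Total counts were 2.83 to 34.1 M per library at 5 months and 26.2 to 30.98 M at 10 months. The 10-month libraries were close to each other (median gene-wise SD of log2 (CPM + 0.5) 0.17), whereas the 5-month libraries spread more (0.42), and less without vehicle 9 (0.25). Vehicle 9 of 5 months stood apart: it had 2.83 M counts, 38206 genes detected against 19323 to 24660 in the other 12 libraries, 6.61% mitochondrial counts, and a median correlation of 0.87 with its own group. In that library 22.7% of the counts fell on 4 predicted genes (Gm10800, Gm10801, Gm10722 and Gm26870), which took at most 0.0582% in any other. This share lowers its CPM of other genes. Its ribosomal protein genes summed to 2093 CPM, against 4783 to 6686 CPM in the other 5-month libraries. Its mitochondrially encoded protein genes summed to 65010 CPM, against 11820 to 27690 CPM. How much of these differences comes from the 4 predicted genes was not tested. Vehicles 4 and 6 of 5 months stood apart on the second principal component. Results are therefore given with all 13 libraries, without vehicle 9, and, where it matters, without vehicles 4, 6 and 9, which was decided after their values were known. Hepatocyte markers (albumin and 7 others) summed to 58650 to 124200 CPM at 5 months and 98650 to 115500 CPM at 10 months, which matches the labelled tissue in all 13 libraries.

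**Figure D1:**
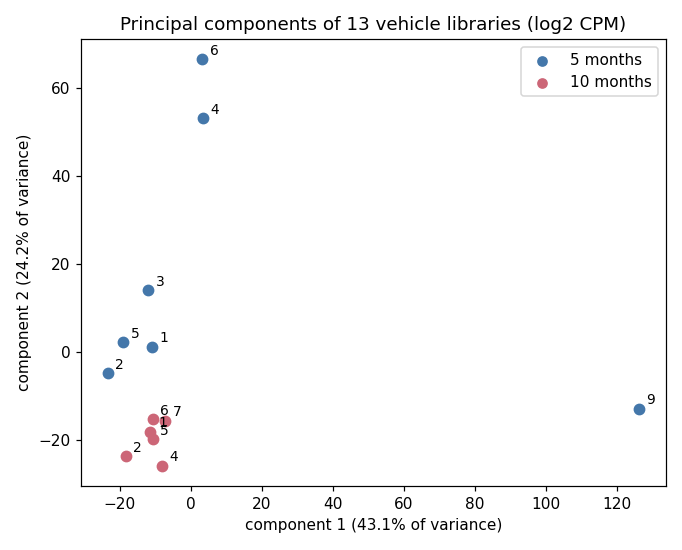
Principal components of log2 (CPM + 0.5) of the 13 vehicle libraries, with 5-month libraries in blue and 10-month libraries in red. Vehicle 9 lies alone on component 1 (43.1% of variance), vehicles 4 and 6 lie high on component 2 (24.2% of variance), and the 10-month libraries lie together.

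With all 13 libraries, 580 of 14333 genes tested were higher at 10 months (4.05%) and 585 were lower (4.08%), at an adjusted p under 0.05 in edgeR's quasi-likelihood test with Benjamini-Hochberg adjustment. Among them 81 genes were higher and 239 lower by more than 1 on the log2 scale. Without vehicle 9, 1576 of 14128 genes were higher (11.2%) and 1786 lower (12.6%), and these held 1154 of the 1165 genes called with it. Without vehicles 4, 6 and 9, 1369 of 14486 genes were higher (9.45%) and 1681 lower (11.6%), and these held 1028 of the 1165. The 4 predicted genes named above were lower at 10 months with all libraries, and Gm10800, Gm10801 and Gm26870 did not pass without vehicle 9. Among gene groups the clearest differences were lower levels at 10 months of interferon-stimulated, acute phase, metallothionein and matrix genes, and higher levels of bile acid genes. The share of each list that was called is read against these percentages.

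**Figure D2:**
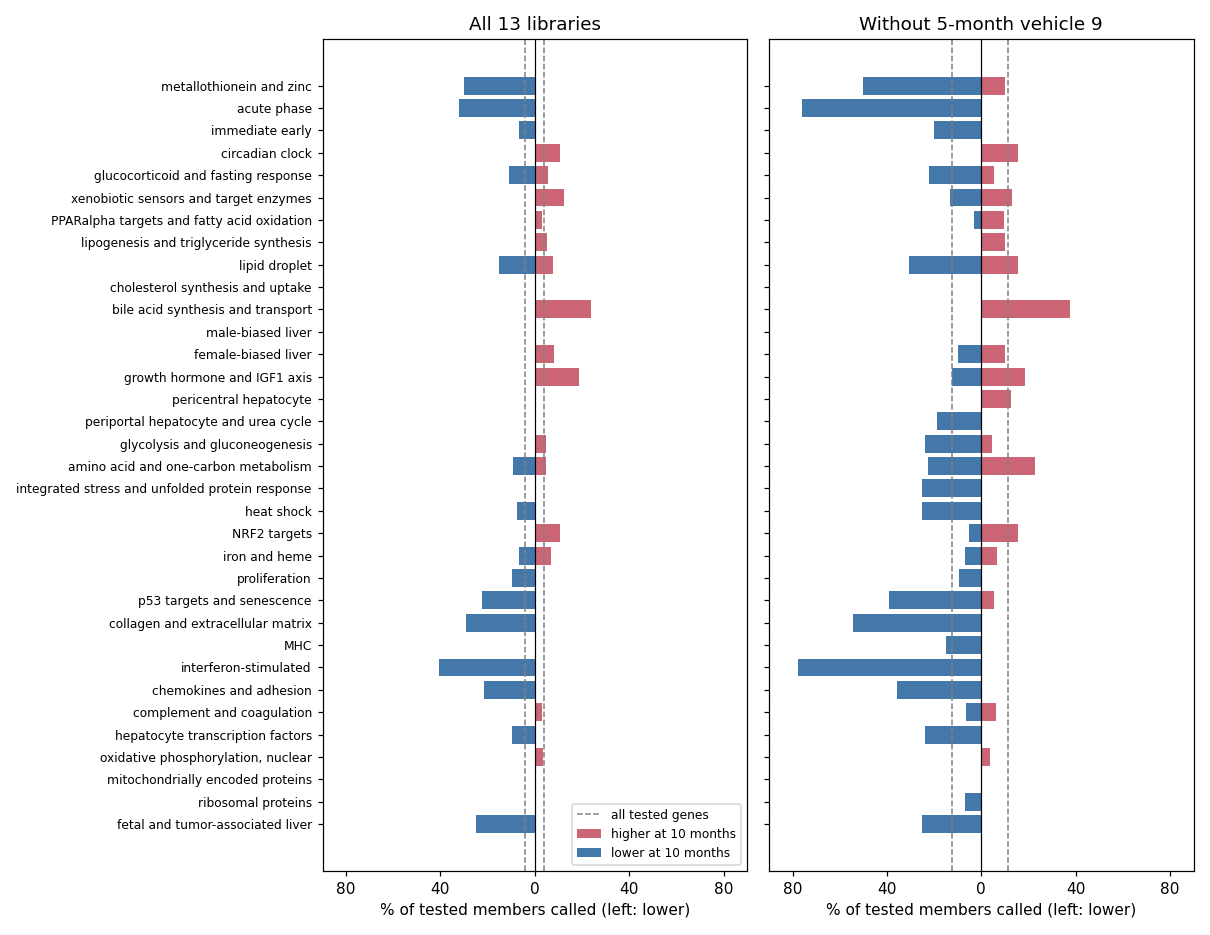
Share of the tested members of each gene list that was called higher (red, right) or lower (blue, left) at 10 months, with all 13 libraries and without 5-month vehicle 9. Dashed lines mark the shares over all tested genes (4.05% and 4.08%, then 11.2% and 12.6%), and the interferon-stimulated and acute phase lists reach farthest to the left in both panels.

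The promoters of 3 interferon-stimulated genes and of both metallothioneins are shown because the first group had the highest share of lower calls among the gene lists and the second the largest decreases among the genes named by the rule. Each is the 250 bases before the RefSeq start in GRCm38.p6, written 5′ to 3′ on the strand of the gene, with motif matches in capitals. For Isg15 (chr4:156200819-156201068, minus strand), Ifit1 (chr19:34640639-34640888, plus strand) and Ifit3 (chr19:34583279-34583528, plus strand) the capitals mark GAAA, any 2 bases and GAAA, the core of the interferon-stimulated response element, on either strand.
Isg15: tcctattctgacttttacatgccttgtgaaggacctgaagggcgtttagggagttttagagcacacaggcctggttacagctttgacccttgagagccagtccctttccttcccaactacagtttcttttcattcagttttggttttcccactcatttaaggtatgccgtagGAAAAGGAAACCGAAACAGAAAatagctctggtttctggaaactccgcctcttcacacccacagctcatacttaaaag
Ifit1: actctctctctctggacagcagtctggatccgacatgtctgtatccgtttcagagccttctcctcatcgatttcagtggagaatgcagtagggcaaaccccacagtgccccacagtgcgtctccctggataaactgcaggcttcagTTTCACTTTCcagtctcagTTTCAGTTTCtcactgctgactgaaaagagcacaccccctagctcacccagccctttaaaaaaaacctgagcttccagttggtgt
Ifit3: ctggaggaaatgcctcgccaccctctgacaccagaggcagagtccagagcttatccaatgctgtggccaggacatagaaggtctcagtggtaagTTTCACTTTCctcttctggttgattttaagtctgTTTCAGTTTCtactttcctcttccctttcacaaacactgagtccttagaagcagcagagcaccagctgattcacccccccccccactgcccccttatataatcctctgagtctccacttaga
Isg15 held 3 overlapping matches, and Ifit1 and Ifit3 held 2 each. These 3 are shown because they hold matches, whereas Oasl2, the other member of the list named by the rule, held 0 in its promoter. The motif was present in 13 of the 21 list members with a promoter in the table and in 2.98% of all 32851 promoters of this length. A list member counted if any of its promoters held the motif, whereas the 2.98% counts each promoter, so the units differ. For Mt2 (chr8:94172368-94172617, plus strand) and Mt1 (chr8:94178839-94179088, plus strand) the capitals mark TGCNCNC on either strand. This is a loose form of the core of the metal response element, so not every match is a match of the stricter core.
Mt2: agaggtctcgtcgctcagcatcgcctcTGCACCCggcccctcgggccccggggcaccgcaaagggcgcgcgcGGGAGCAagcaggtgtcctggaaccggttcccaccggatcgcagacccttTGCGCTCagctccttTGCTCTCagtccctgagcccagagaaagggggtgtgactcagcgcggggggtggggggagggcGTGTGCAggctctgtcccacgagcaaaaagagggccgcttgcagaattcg
Mt1: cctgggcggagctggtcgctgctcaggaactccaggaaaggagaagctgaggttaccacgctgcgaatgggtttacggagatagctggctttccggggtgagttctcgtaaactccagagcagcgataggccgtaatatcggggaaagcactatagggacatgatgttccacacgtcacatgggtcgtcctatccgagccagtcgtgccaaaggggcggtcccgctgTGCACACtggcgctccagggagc
Within these windows Mt2 held 5 matches and Mt1 held 1, but this short loose motif occurs in 44.4% of all promoters of this length. The Mt1 window follows its RefSeq start and ends just inside the Mt1 span given below. Matches outside the windows were not counted, so the counts do not compare the promoters of both genes. These matches describe the sequence and are not sites shown to be bound.

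Interferon-stimulated genes were lower at 10 months as a group. Of 27 members tested, 11 fell, 0 rose and 16 did not pass, with a median log2 fold change of -0.54 against -0.04 over all tested genes. Without vehicle 9, 21 of 27 fell (median -0.55), and without vehicles 4, 6 and 9, 18 of 27 fell (median -0.61). Isg15 (ENSMUSG00000035692, chromosome 4, 156199424 to 156200818, GRCm38) encodes a ubiquitin-like protein that is attached to other proteins after interferon. Levels of Isg15 ran from 2.12 to 11.5 CPM (median 6.28) at 5 months and from 1.73 to 2.33 CPM (median 1.93) at 10 months. Vehicle 9 was the lowest 5-month library at 2.12 CPM and lay within the 10-month range, and the other 6 were all above it. The difference passed the test (log2 fold change -1.88, SE 0.24, edgeR adjusted p 0.00158), also without vehicle 9 (log2 fold change -1.98, adjusted p 0.000144). Oasl2 (ENSMUSG00000029561, chromosome 5, 114896936 to 114912234) encodes a member of the oligoadenylate synthetase family. Levels of Oasl2 ran from 4.08 to 9.09 CPM (median 6.16) at 5 months and from 1.57 to 3.76 CPM (median 2.42) at 10 months. Its groups did not overlap, and the difference passed (log2 fold change -1.36, SE 0.24, edgeR adjusted p 0.0061).

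Other members moved the same way; they, and the members of other lists named beyond the naming rule, were chosen after their values were seen. Usp18, the protease that removes ISG15 and restrains interferon signalling, fell by 1.53 on the log2 scale (SE 0.27, edgeR adjusted p 0.00632), from 12.4 ± 6.97 CPM (SD, n = 7) to 4.62 ± 0.720 CPM (SD, n = 6). Ifit1, whose product binds viral RNA, fell by 1.56 and Ifit3 by 1.04, with 10-month libraries between 3.37 and 9.06 CPM and between 3.16 and 5.94 CPM. Ifi44 (-1.60), Oas1a (-1.55), Rsad2 (-1.43), Mx2 (-0.91), and the chemokines Cxcl9 (-0.94) and Cxcl10 (-0.97) also fell. Irf9, a transcription factor gene of the pathway, had a log2 fold change of -0.44 (adjusted p 0.106) and passed without vehicle 9 (adjusted p 0.00411). Class I and II histocompatibility genes, many of which respond to interferon, gave 0 calls among 20 tested, and 3 fell without vehicle 9. The smallest p was that of the class II invariant chain Cd74 (log2 fold change -0.57, adjusted p 0.12).

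**Figure D3:**
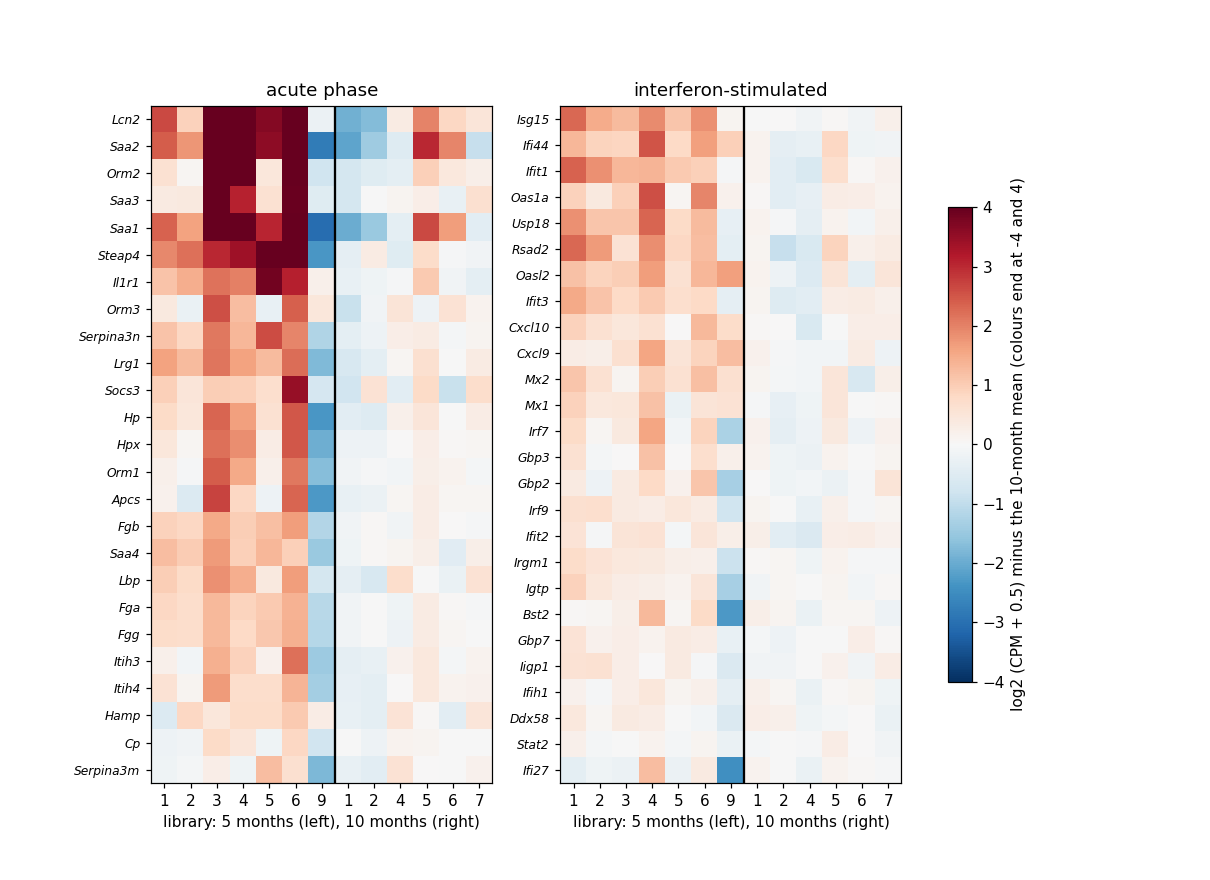
Level of 25 acute phase genes and 26 of the 27 tested interferon-stimulated genes in each vehicle library, as log2 (CPM + 0.5) minus the 10-month mean of the gene, with rows ordered by log2 fold change. Most 5-month libraries are above the 10-month mean (red), vehicle 9 is below it for many acute phase genes, and vehicles 3, 4 and 6 are the highest for Lcn2, Saa1, Saa2 and Orm2.

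Acute phase genes were also lower at 10 months. Of 25 members tested, 8 fell, 0 rose and 17 did not pass (median -1.36), and without vehicle 9, 19 of 25 fell (median -1.55). Without vehicles 4, 6 and 9, 14 of 25 fell. Steap4 (ENSMUSG00000012428, chromosome 5, 7960457 to 7982213) encodes a metalloreductase induced by interleukin-6. Levels of Steap4 ran from 18.7 to 1834 CPM (median 782) at 5 months and from 67.8 to 159.8 CPM (median 89.99) at 10 months. Vehicle 9 had 18.7 CPM, below every 10-month library, and the other 6 livers of 5 months were all above them (log2 fold change -3.19, SE 0.67, edgeR adjusted p 0.013; without vehicle 9 -3.41, adjusted p 0.000551). Il1r1 (ENSMUSG00000026072, chromosome 1, 40225080 to 40317257) encodes the receptor through which interleukin-1 signals. Levels of Il1r1 ran from 22.6 to 290.2 CPM (median 80.4) at 5 months and from 14.8 to 40.8 CPM (median 17.5) at 10 months. The call passed (log2 fold change -2.48, SE 0.52, edgeR adjusted p 0.0133), with vehicle 5 of 5 months the highest at 290.2 CPM and vehicle 9 within the 10-month range.

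The secreted acute phase proteins below were chosen after their values were seen. Fgb encodes the beta chain of fibrinogen. Levels of Fgb ran from 2609 to 18760 CPM (median 11600) at 5 months and from 5302 to 7143 CPM (median 5764) at 10 months. It fell by 1.10 on the log2 scale (SE 0.31, edgeR adjusted p 0.0433). Only vehicle 9 (2609 CPM) was within or below the 10-month range, and without it the log2 fold change was -1.27 with adjusted p 0.000527. Lcn2, a siderophore-binding lipocalin, was at 811, 550.1 and 857 CPM in vehicles 3, 4 and 6 of 5 months, at 3.88 to 65.4 CPM in the other 4, and at 0.875 to 20.1 CPM at 10 months. It fell (log2 fold change -5.54, SE 1.28, edgeR adjusted p 0.0189). Serum amyloid Saa1 ran from 8.83 to 8551 CPM (median 633) at 5 months and from 18.7 to 478 CPM (median 57.2) at 10 months. It overlapped between ages and did not pass (log2 fold change -4.11, SE 1.25, edgeR adjusted p 0.0557). It passed without vehicle 9 (adjusted p 0.0183) and again did not without vehicles 4, 6 and 9 (adjusted p 0.0611). Library 5 of 10 months was the highest of its age for Saa1 and Lcn2.

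Both metallothioneins had the largest decreases of the genes named by the rule. Mt2 (ENSMUSG00000031762, chromosome 8, 94172664 to 94173568) ran from 0 to 234 CPM (median 18.5) at 5 months and from 0.0968 to 1.53 CPM (median 0.287) at 10 months. It was not detected in vehicle 9, where 3 counts would be 1.06 CPM, and the other 6 libraries of 5 months were all above the 10-month libraries (log2 fold change -7.00, SE 1.35, edgeR adjusted p 0.00913). Mt1 (ENSMUSG00000031765, chromosome 8, 94179082 to 94180327) ran from 0.706 to 1375 CPM (median 299.6) at 5 months and from 1.84 to 26.9 CPM (median 4.78) at 10 months. Vehicle 9 was the lowest of all 13 for Mt1, and the other 5-month libraries ran from 87.6 to 1375 CPM (log2 fold change -5.92, SE 1.17, edgeR adjusted p 0.0102). Without vehicle 9 the log2 fold changes were -7.21 for Mt2 (adjusted p 0.00377) and -6.14 for Mt1 (adjusted p 0.00175). Of 10 genes of metallothionein and zinc handling, 3 fell and 0 rose; the third was the zinc importer Slc39a4 (log2 fold change -1.11, SE 0.32, edgeR adjusted p 0.0464), chosen after its values were seen. The metal sensor Mtf1 had a log2 fold change of -0.27 and did not pass with vehicle 9 (adjusted p 0.0791) but did without it (adjusted p 0.0364). Glucocorticoid and fasting response genes gave 2 lower, which were Mt1 and Cdkn1a, and 1 higher of 18. Without vehicle 9, 4 of these 18 fell and 1 rose, and without vehicles 4, 6 and 9, 2 fell and 1 rose.

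**Figure D4:**
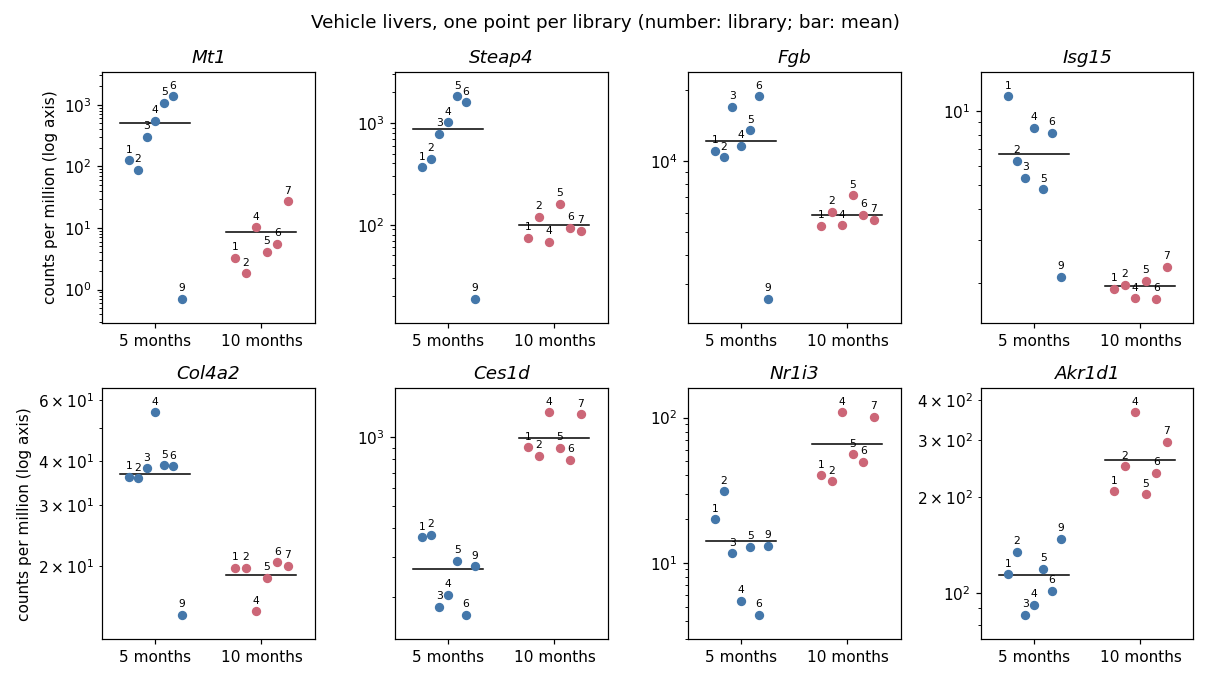
CPM of 8 genes in each vehicle library on log axes, with the library number beside each point and a bar at the group mean. Mt1, Steap4, Fgb, Isg15 and Col4a2 are higher in 5-month libraries other than vehicle 9, while Ces1d, Nr1i3 and Akr1d1 are higher in every 10-month library than in any 5-month library.

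Genes of collagen and extracellular matrix, made largely by stellate cells and endothelium, were lower at 10 months in 7 of 24 tested, with 0 higher (median -1.05). They were lower in 13 of 24 without vehicle 9 and in 9 of 24 without vehicles 4, 6 and 9 (median -0.47). Col4a2 (ENSMUSG00000031503, chromosome 8, 11312805 to 11449287) encodes a chain of basement membrane collagen IV. Levels of Col4a2 ran from 14.5 to 55.3 CPM (median 38.2) at 5 months and from 14.8 to 20.5 CPM (median 19.8) at 10 months. Vehicle 9 had 14.5 CPM and the other 5-month libraries were all above the 10-month range (log2 fold change -1.05, SE 0.18, edgeR adjusted p 0.00575; without vehicles 4, 6 and 9 -1.11, adjusted p 9.18e-05). Col15a1 (ENSMUSG00000028339, chromosome 4, 47208161 to 47313167) fell by 1.12 (SE 0.23, edgeR adjusted p 0.0111). The fibrillar collagen chain Col1a1 fell by 2.02 (adjusted p 0.0168), with vehicles 4 (38.8 CPM) and 6 (21.3 CPM) the highest, and by 1.05 without vehicles 4, 6 and 9. Col5a2 was at 46.0 and 77.9 CPM in vehicles 4 and 6 and at 2.64 to 7.42 CPM in the other 5, and its call did not hold without vehicles 4, 6 and 9 (log2 fold change -0.63, adjusted p 0.0919). Stellate cell and fibroblast markers summed to 125 to 564 CPM at 5 months and 257 to 462 CPM at 10 months. Of 8 such markers 2 fell, the muscle filament gene Des (log2 fold change -1.06, SE 0.26, edgeR adjusted p 0.0242) and the stellate cell factor Hand2 (log2 fold change -0.74, SE 0.19, edgeR adjusted p 0.0283). Sinusoidal endothelial markers summed to 342 to 493 CPM at 5 months and 396.5 to 498 CPM at 10 months. Of these 8 markers 1 fell, the hyaluronan receptor Lyve1 (log2 fold change -1.09, SE 0.19, edgeR adjusted p 0.00597), which also fell without vehicles 4, 6 and 9 (adjusted p 0.00673). The other 7 had a log2 fold change above 0 and were not called, and the median of the list was 0.12. The part of stellate and endothelial cells in the collagen differences was not tested.

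Bile acid genes were higher at 10 months. Of 25 tested, 6 rose, 0 fell and 19 did not pass (median 0.49). Without vehicle 9, 9 of 24 rose and 0 fell, and without vehicles 4, 6 and 9, 7 of 25 rose and 1 fell (median 0.26). Akr1d1 (ENSMUSG00000038641, chromosome 6, 37530173 to 37568815) encodes the reductase that gives bile acids their bent ring system. Levels of Akr1d1 ran from 85.6 to 148 CPM (median 115) at 5 months and from 204 to 366 CPM (median 243) at 10 months. The groups did not overlap (log2 fold change 1.10, SE 0.19, edgeR adjusted p 0.00597). Fgfr4 (ENSMUSG00000005320, chromosome 13, 55152640 to 55168759) encodes the receptor for the intestinal hormone FGF15. Levels of Fgfr4 ran from 23.3 to 41.9 CPM (median 28.7) at 5 months and from 38.6 to 47.7 CPM (median 43.3) at 10 months. Only vehicle 6 of 5 months was within the 10-month range (log2 fold change 0.46, SE 0.10, edgeR adjusted p 0.0155). Its coreceptor Klb (log2 fold change 0.70, adjusted p 0.0449) and the uptake transporters Slco1b2 (1.03, adjusted p 0.0217) and Slco1a4 (0.74, adjusted p 0.039) rose, as did the efflux pump Abcc3 (0.69, adjusted p 0.0163). Klb did not pass without vehicles 4, 6 and 9 (adjusted p 0.0513). Cyp7a1 encodes the rate-limiting enzyme of bile acid synthesis. Levels of Cyp7a1 ran from 12.9 to 101 CPM (median 25.6) at 5 months and from 61.9 to 227 CPM (median 129.6) at 10 months. The ages overlapped at vehicles 3 and 9 of 5 months. Cyp7a1 passed without vehicle 9 (log2 fold change 2.07, adjusted p 0.0128) but not with all libraries (1.67, adjusted p 0.0597).

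The gene with the largest increase of those named by the rule was Nr1i3 (ENSMUSG00000005677, chromosome 1, 171213970 to 171220701), the xenobiotic-sensing constitutive androstane receptor. Levels of Nr1i3 ran from 4.37 to 31.1 CPM (median 12.9) at 5 months and from 36.5 to 108 CPM (median 52.8) at 10 months. Every 10-month library was above every 5-month library (log2 fold change 2.12, SE 0.44, edgeR adjusted p 0.0125). The related sensor gene Nr1i2 (PXR) had a log2 fold change of -0.29 (adjusted p 0.39). Cyp2b10, the classic target of Nr1i3, was too low to test (at most 3.20 CPM at 5 months and 0.0764 CPM at 10 months). Of 24 genes of xenobiotic handling tested 3 rose (Nr1i3, Abcc3 and Cyp3a25) and 0 fell. Without vehicle 9, 3 of 23 rose and 3 fell. Ces1d (ENSMUSG00000056973, chromosome 8, 93166068 to 93197838) encodes a carboxylesterase that hydrolyses lipid esters. Levels of Ces1d ran from 166 to 375 CPM (median 272) at 5 months and from 797 to 1286 CPM (median 903) at 10 months, and the groups did not overlap (log2 fold change 1.82, SE 0.24, edgeR adjusted p 0.00158). Lrtm1 ran from 0.975 to 7.42 CPM (median 2.70) at 5 months and from 7.17 to 15.4 CPM (median 11.7) at 10 months. Vehicle 9 of 5 months was the only overlap (log2 fold change 2.07, SE 0.36, edgeR adjusted p 0.00591). Acot3, a target of PPARalpha, encodes a peroxisomal acyl-CoA thioesterase. Levels of Acot3 ran from 0.807 to 6.502 CPM (median 2.12) at 5 months and from 4.71 to 39.4 CPM (median 10.4) at 10 months. The ages overlapped and the difference passed (log2 fold change 2.09, SE 0.56, edgeR adjusted p 0.0354), but not without vehicles 4, 6 and 9 (adjusted p 0.119). The other PPARalpha and fatty acid oxidation genes gave 0 calls, so Acot3 was 1 of 31 tested, which is below the share over all genes. Without vehicle 9, 3 of 31 rose and 1 fell. Without vehicles 4, 6 and 9, 0 rose and 5 fell, and the median went from 0.19 with all libraries to -0.14. The succinate receptor gene Sucnr1 (log2 fold change 1.63), the water channel gene Aqp8 (1.60), the steroid dehydrogenase gene Hsd3b2 (1.46), Dct (1.41), the glycogen-targeting phosphatase subunit gene Ppp1r3c (1.37) and Lonrf3 (1.37) completed the 10 highest, all with edgeR adjusted p from 0.00895 to 0.0437. Without vehicles 4, 6 and 9, Ppp1r3c had an adjusted p of 0.0604 and the other 5 passed.

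Growth hormone signalling genes rose in 3 of 16 tested, with 0 lower. They were the receptor Ghr (log2 fold change 0.73, SE 0.17, edgeR adjusted p 0.0198), its signal transducer Stat5b (log2 fold change 0.38, SE 0.09, edgeR adjusted p 0.0189) and its kinase Jak2 (log2 fold change 0.24, adjusted p 0.0479). Without vehicle 9 the same 3 rose and Egfr (-1.38, adjusted p 0.00248) and Igfbp1 (-1.54, adjusted p 0.043) fell. Ghr ran from 286 to 529 CPM (median 484) at 5 months and from 743 to 842 CPM (median 794) at 10 months, without overlap. Genes of male-biased liver expression, which depend on pulsatile growth hormone, gave 0 calls among 20 with all libraries, and the smallest p was that of Cyp2d9 (log2 fold change 0.65, adjusted p 0.177). Of 19 clock genes, 2 rose, among them the repressor Cry1 (log2 fold change 1.09, SE 0.32, edgeR adjusted p 0.0498), whose call rests close to the threshold. The hour of sampling is not given in the sources used here. Among 19 NRF2 targets, Gclc, the catalytic subunit for glutathione synthesis (log2 fold change 0.84, SE 0.14, edgeR adjusted p 0.00591), and the aldehyde oxidase Aox1 (log2 fold change 0.55, SE 0.12, edgeR adjusted p 0.0161) rose. Without vehicle 9, 3 of these 19 rose and 1 fell. Without vehicles 4, 6 and 9, 6 rose and 1 fell, against 9.45% higher and 11.6% lower over all genes. The iron exporter Slc40a1 rose (log2 fold change 0.88, SE 0.16, edgeR adjusted p 0.00632) and the transferrin receptor Tfrc fell (log2 fold change -0.41, SE 0.11, edgeR adjusted p 0.0341), 1 of 15 iron and heme genes each way. Tfrc did not pass without vehicles 4, 6 and 9 (adjusted p 0.0526).

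A few calls came from each of several metabolic lists. Shmt1, a serine hydroxymethyltransferase, rose (log2 fold change 0.83, SE 0.14, edgeR adjusted p 0.00591), whereas the serine synthesis enzyme Psat1 fell (log2 fold change -1.99, SE 0.47, edgeR adjusted p 0.0194), with the methionine cycle gene Mat2a the third of 22 amino acid genes. The glucose transporter Slc2a2 rose (log2 fold change 0.89, SE 0.26, edgeR adjusted p 0.0493) as 1 of 21 genes of glycolysis and gluconeogenesis. The triglyceride synthesis enzyme Dgat2 (log2 fold change 0.61, SE 0.17, edgeR adjusted p 0.0351) rose as 1 of 20 lipogenic genes, and the clotting factor subunit F13b (log2 fold change 0.55, SE 0.14, edgeR adjusted p 0.0266) as 1 of 31. Of 13 lipid droplet genes, Cidec, which enlarges droplets (log2 fold change -2.23, SE 0.45, edgeR adjusted p 0.0112), and the lipase Pnpla2 (log2 fold change -0.74, SE 0.18, edgeR adjusted p 0.0216) fell and Fitm1 rose. Without vehicle 9, 2 of these 13 rose and 4 fell. Of the 22 amino acid genes 5 rose and 5 fell without vehicle 9. Cox6c rose (log2 fold change 0.38, SE 0.11, edgeR adjusted p 0.0479) as 1 of 28 nuclear genes of oxidative phosphorylation, but not without vehicles 4, 6 and 9 (adjusted p 0.0592). Cholesterol synthesis (24 tested), ribosomal protein (30), pericentral (16) and periportal (16) hepatocyte genes and mitochondrially encoded proteins (13) gave 0 calls with all 13 libraries. Their smallest p values belonged to Tm7sf2 (log2 fold change 0.79, adjusted p 0.0808), Rpl13a (-0.51, 0.0869), Cyp7a1 as above, Sds (-1.38, 0.0922) and mt-Nd6 (-1.88, 0.122); mt-Nd6 was at 3215 CPM in vehicle 9. Without vehicle 9, 3 of 16 periportal and 2 of 30 ribosomal protein genes were lower, and 2 of 16 pericentral genes were higher. Without vehicles 4, 6 and 9, 5 of 13 mitochondrially encoded genes were lower, mt-Nd6 among them (log2 fold change -0.46, adjusted p 0.0321).

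Some growth control and stress genes were lower at 10 months. Cdkn1a (ENSMUSG00000023067, chromosome 17, 29090976 to 29100727) encodes the p21 inhibitor of the cell cycle. Levels of Cdkn1a ran from 4.22 to 34.1 CPM (median 16.3) at 5 months and from 0.783 to 6.02 CPM (median 1.47) at 10 months. Of the 5-month libraries, vehicles 3 and 9 lay within the 10-month range (log2 fold change -3.10, SE 0.56, edgeR adjusted p 0.00642), and the gene also passed without vehicles 4, 6 and 9 (adjusted p 0.0135). In the p53 and senescence list 4 of 18 fell and 0 rose, and these included Cdkn1a, Trp53 and Zmat3. Without vehicles 4, 6 and 9, 5 of 18 fell and 1 rose, and the median went from -0.35 to 0.02. Of 21 proliferation genes 2 fell, Ccnd1 (log2 fold change -2.41, SE 0.53, edgeR adjusted p 0.0162) and Ccne1 (log2 fold change -1.71, SE 0.48, edgeR adjusted p 0.0398). The list's median was -1.18 with all libraries and 0.04 without vehicles 4, 6 and 9. Ccnd1 was at 73.4 and 148 CPM in vehicles 4 and 6 and at most 32.9 CPM elsewhere. Jun (log2 fold change -1.09, SE 0.31, edgeR adjusted p 0.0437) was the 1 of 15 immediate early genes that fell, and Hspb1 (log2 fold change -1.24, SE 0.29, edgeR adjusted p 0.0191) the 1 of 13 heat shock genes. Jun did not pass without vehicles 4, 6 and 9 (adjusted p 0.0793). With all libraries the single calls of Jun and Hspb1 lie near the 4.08% of all tested genes that were lower. Without vehicle 9, 3 of 15 immediate early and 3 of 12 heat shock genes fell, against 12.6% of all genes. Without vehicles 4, 6 and 9, 1 of 15 and 3 of 13 fell, against 11.6% of all genes. The list of integrated stress and unfolded protein response genes gave 0 calls among 20 tested. Without vehicle 9, 5 of these 20 fell and 0 rose, and without vehicles 4, 6 and 9, 4 fell and 1 rose. The hepatocyte transcription factor genes Prox1 (log2 fold change -0.69, SE 0.17, edgeR adjusted p 0.0217) and Cebpd (log2 fold change -1.29, SE 0.24, edgeR adjusted p 0.00798), 2 of 21, fell.

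Fetal and tumor-associated genes fell in 3 of 12 tested: Ly6d, H19 and Gpnmb. Ly6d was at 56.0 and 92.2 CPM in vehicles 4 and 6, at 1.77 to 6.83 CPM in the other 5-month livers and at 0.851 to 2.09 CPM at 10 months (log2 fold change -4.31, SE 0.91, edgeR adjusted p 0.0134). H19, an imprinted noncoding RNA, was at 18.8 CPM in vehicle 6 and at most 3.88 CPM in the others. Without vehicles 4, 6 and 9 Ly6d still fell (log2 fold change -2.07, adjusted p 0.00167), H19 did not pass (-0.68, adjusted p 0.203), and the list's median went from -1.23 to 0.09. Dmbt1, a secreted scavenger receptor of epithelia, was at 80.1 CPM in vehicle 4, at 4.94 CPM in vehicle 9 and at no more than 0.448 CPM in the other 11 libraries. It did not pass the filter on low counts and was not tested. The remaining large decreases named by the rule were Syt12 (log2 fold change -3.04), Slc37a1 (-2.53), the ferritin receptor gene Scara5 (-2.50), the leptin receptor gene Lepr (-1.89) and Synpo (-1.72), with edgeR adjusted p from 0.00146 to 0.0209, and all 5 passed without vehicles 4, 6 and 9. Scara5 ran from 15.5 to 94.1 CPM (median 61.5) at 5 months and from 6.39 to 15.8 CPM (median 9.80) at 10 months, with vehicle 9 within the 10-month range and the other 6 above it.

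Markers of other cells differed mostly by single genes. Neutrophil markers summed to 1.93 to 20.6 CPM at 5 months and 1.39 to 2.88 CPM at 10 months, and S100a9 fell (log2 fold change -1.66, SE 0.45, edgeR adjusted p 0.0351), 1 of 2 tested. It was highest in vehicle 6 (10.8 CPM) and did not pass without vehicles 4, 6 and 9 (adjusted p 0.0539). Among chemokines and adhesion genes 3 of 14 fell, Ccl6 (log2 fold change -1.10, SE 0.15, edgeR adjusted p 0.00225), Cxcl9 and Cxcl10. Kupffer cell markers summed to 162 to 453 CPM at 5 months and 284 to 403 CPM at 10 months, with 0 of 8 called (smallest p Vsig4, log2 fold change 0.31, adjusted p 0.198). Markers of other myeloid cells summed to 81.9 to 358 CPM at 5 months and 112 to 171 CPM at 10 months, with 0 of 8 called (Itgax -1.89, 0.0683). B and plasma cell markers summed to 16.6 to 50.7 CPM at 5 months and 28.4 to 292 CPM at 10 months. The immunoglobulin heavy chain Ighm rose (log2 fold change 1.82, SE 0.53, edgeR adjusted p 0.0491). It ran from 9.10 to 28.5 CPM (median 15.5) at 5 months and from 13.04 to 200.4 CPM (median 36.7) at 10 months, and libraries 4 and 7 of 10 months lay within the 5-month range. Without vehicle 9 Ighm missed the threshold (adjusted p 0.0501). Cholangiocyte (6 tested), T and NK cell (3), erythroid (6), pancreatic acinar (1), intestinal and gallbladder (3), adipocyte (1) and muscle (1) markers gave 0 calls. Pancreatic acinar markers summed to 50.9 CPM in vehicle 9 and to at most 5.84 CPM elsewhere. Vehicle 9 was also the highest library for muscle markers (20.5 CPM, at most 2.01 CPM elsewhere) and for T and NK cell markers (20.5 CPM, at most 8.17 CPM elsewhere). The same held for adipocyte markers (9.18 CPM, at most 5.20 CPM elsewhere). It was the lowest for erythroid (103 CPM) and intestinal and gallbladder markers (50.9 CPM). The cause was not tested. The part of these cell types in the acute phase and interferon differences was not tested.

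Low-risk TBT livers, which share no library with the vehicle comparison, gave far fewer calls between the same ages. In a fit of vehicle and low-risk livers, 2 of 15677 genes (0.0128%) passed, Gm4784 higher and Nsun3 lower, and 1403 had an unadjusted p under 0.05. For the 1165 genes called in vehicle livers, 1059 (90.9%) had the same sign in low-risk livers, against 69.0% of all 14333 genes tested in both. The fold changes of these genes had a Pearson r of 0.79 across genes, which are not independent replicates, and their median size in low-risk livers was 0.29 on the log2 scale. That in vehicle livers is raised by the selection of called genes, so the sizes are not compared. Mt1 had a log2 fold change of -3.86 (SE 1.15), Steap4 of -1.53 (SE 0.66), Isg15 of -0.51 (SE 0.34), Ces1d of 0.88 (SE 0.30) and Nr1i3 of 0.35 (SE 0.44) in low-risk livers, and none of these 5 passed. The difference between the vehicle and low-risk age differences passed for 0 of 15677 genes (0.00%) with edgeR, with 914 at an unadjusted p under 0.05, and for 21 genes with DESeq2. Without vehicle 9 it passed for 2 genes, Hpgd (1.23, SE 0.21, adjusted p 0.0428) and Gm45909 (6.40, SE 0.91, adjusted p 0.00475). The lower number of low-risk calls is therefore not shown to be a difference between the groups for nearly all genes, and low-risk 16 of 5 months had 11.2% mitochondrial counts.

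**Figure D5:**
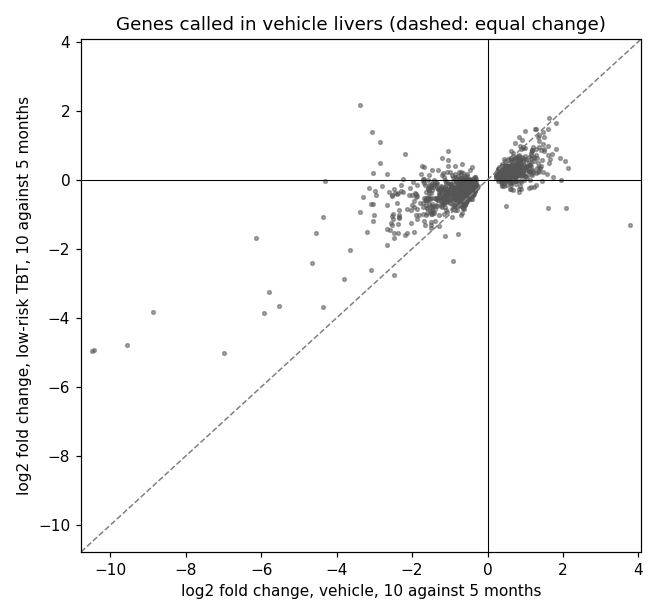
Log2 fold change between 5 and 10 months in low-risk TBT livers against that in vehicle livers for the 1165 genes called in vehicle livers, with a dashed line of equal change. Most points (1059) lie in the quadrants of equal sign. The genes were selected on the vehicle axis, so distances from 0 on the axes are not comparable.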

How the data were processed

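Liver RNA was extracted with RNeasy, DNase-treated and prepared as TruSeq stranded total RNA libraries, per the labels' protocols. The authors deposited 1 table of whole-number counts for 55536 genes, whose name says it was adjusted between sequencing batches with ComBat-seq. The submitters' processing notes name Trim Galore, HISAT2, featureCounts and mm10. Their versions, the strand setting and the settings of the adjustment are not given in the sources used here, and how far the adjustment altered the age differences was not tested. All identifiers matched GENCODE M21 (GRCm38). Tests used edgeR 4.0.16 in R 4.3.3 (TMM, filterByExpr, robust quasi-likelihood, Benjamini-Hochberg adjustment, threshold 0.05), with 6 against 7 vehicle libraries in a fit of their own and 4 groups for the low-risk comparison and the interaction. Each SE is the log2 fold change divided by the square root of its F. The procedure was tested on simulated data. The library labelled as a tumor and batch 2 were left out.

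The members and the 48 gene and marker lists were chosen with earlier results of these data known. Genes were named by rule: per direction, the 10 largest log2 fold changes among genes called with and without vehicle 9 that had a mean of at least 5 CPM, every library of an age on one side of the other age's mean, and no predicted-gene name. To these were added, per list, up to 2 called members with the smallest adjusted p (or the member with the smallest p), and Nr1i3, Acot3, Lrtm1, Dmbt1, Mt2 and Mt1. A few genes are counted in their lists but not reported here. Members named beyond the rule were picked with their values in view. Alternatives were RLE size factors, no filter, DESeq2 1.42.0, other sets of libraries, a replicate block and protein-coding genes only. Shared title numbers were not used as pairs in the main test, because the labels do not say whether a number marks a litter.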

Additional observations from a re-analysis of the deposited data

Results flagged for a closer look

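Single libraries lay far from the rest of their group, by Dixon's test at the 95% level on log2 (CPM + 0.5), for 20 of 156 pairs of a named gene and an age, where chance alone flags about 1 in 20. At 5 months vehicle 9 accounted for all 10. It was far above the other 6 for Ccne1 (5.30 CPM), Mylpf (2.83 CPM) and mt-Nd6 (3215 CPM). It was far below them for Col4a2 (14.5 CPM), Dgat2 (183 CPM), Hspb1 (6.00 CPM), Mt1 (0.706 CPM), Pck1 (1213 CPM), Rpl13a (4.59 CPM) and Steap4 (18.7 CPM).

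At 10 months 10 values stood apart. Library 1 stood apart for Cela2a (0.401 CPM, high) and H19 (0.109 CPM, low). Library 2 stood apart for Stat5b (79.95 CPM, low). Library 4 stood apart for Col4a2 (14.8 CPM, low), Jun (3.00 CPM, low), Rpl13a (9.70 CPM, low) and mt-Nd6 (227 CPM, high). Library 5 stood apart for Cdkn1a (6.02 CPM, high) and Il1r1 (40.8 CPM, high). Library 7 stood apart for Dmbt1 (0.306 CPM, high). Library 5 was also the highest 10-month library for Saa1.

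The 10-month vehicle library labelled as a tumor, which entered no comparison, had 408 CPM of H19, against 0.109 to 0.497 CPM in the 6 other 10-month vehicle livers. It is 1 library with no replicate.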

How the results depend on the processing

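With all 13 libraries 1165 genes were called between the ages in vehicle livers. RLE size factors, non-robust dispersion, the fit with low-risk livers, 5-month vehicle 8 of batch 2 added, and protein-coding genes only gave counts within 1.5 times of that. No filter on low counts gave 345, DESeq2 2565 (1070 higher and 1495 lower), the fit of vehicles of 3 ages 2107, the library labelled as a tumor counted as a 10-month vehicle 156, and leaving out vehicles 4, 6 and 9 of 5 months 3050. Leaving out 1 library gave 561 to 3362 calls: 3362 without 5-month vehicle 9, 743 without 5-month vehicle 4, and 614, 640, 561, 664 and 712 without 10-month vehicles 1, 2, 4, 6 and 7. The title number as a replicate block, over the 5 numbers present at both ages, gave 1512 calls and the same libraries without a block 2501. Same-numbered libraries correlated in their deviations by -0.12 to 0.20, and 2 of the 5 numbers correlated best with their own number, a hint from the data only. In low-risk livers 2 genes were called, against 0 without a filter, 80 with DESeq2, 0 in a fit of the low-risk groups only, and 0 to 4 with single libraries left out. No paired analysis was possible for low-risk livers because the ages share only 1 number. For the difference between the age differences 0 genes were called, against 21 with DESeq2, 1 without vehicle 9 and low-risk 16 of 5 months, and 0 to 2 with single libraries left out. The cause of these shifts was not tested. Of 61 named genes that were called, 11 passed under each alternative that tested them, and 50 missed the threshold under at least 1. Among these 61 the sign changed for H19, which was 3.70 on the log2 scale with the library labelled as a tumor included. Among named genes that were not called it changed for mt-Nd6 (0.32 with that library) and Cfd (-0.38 with the block, -0.25 without 10-month vehicle 7). Depth limits vehicle 9 most, where 3 counts are 1.06 CPM.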

Other observations

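Among the called noncoding RNAs and pseudogenes, more were higher than lower at 10 months. Over all tested genes 4.05% were higher and 4.08% lower. Of 1147 long noncoding genes tested (with those of the annotation class TEC), 47 rose and 13 fell. Their higher share was thus close to that over all genes, and their lower share was below it. Of 374 pseudogenes 26 rose and 4 fell, and of 86 small noncoding genes 11 rose and 2 fell. Of 12696 protein-coding genes 494 rose and 565 fell. Without vehicle 9, 249 of 1077 long noncoding genes rose and 30 fell, against 11.2% higher and 12.6% lower over all genes.

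At 3 weeks, values are given for vehicle livers of 7 title numbers, 1 of them with 2 libraries that were summed. Mt1, at 272 to 590.1 CPM, lay within the 5-month range. Isg15, at 3.81 to 12.3 CPM, and Ces1d, at 255 to 478 CPM, overlapped the 5-month range but not the 10-month range. Lrtm1, at 7.87 to 15.8 CPM, overlapped the 10-month range but not the 5-month range. Scara5, at 1.54 to 5.80 CPM, lay below both later ages, and Col4a2, at 90.3 to 166 CPM, lay above them.

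The 1 vehicle liver of 5 months from batch 2 (number 8, 11.3 M counts) had 9.41 CPM of Mt1, 177 CPM of Steap4, 6746 CPM of Fgb, 3.73 CPM of Isg15, 26.2 CPM of Nr1i3 and 291 CPM of Ces1d. Over the 1165 called genes it was nearer to the 10-month mean of log2 (CPM + 0.5) for 597. Batch and mouse cannot be told apart for this library. The library labelled as a tumor had 24.8 CPM of Mt1, 7.99 CPM of Isg15, 8.08 CPM of Nr1i3 and 217 CPM of Ces1d.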
